A study of Mus musculus with 13 samples.

Results

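The Hox genes are the 39 homeobox transcription factor genes of the mouse that lie in the Hoxa, Hoxb, Hoxc and Hoxd clusters. They were taken as every gene symbol made of Hox, a cluster letter from a to d and a number, and all 39 were found among the 24984 genes listed for the tumor endothelial cells (ECs) and among the 24421 listed for the sprout ECs. The number is the paralog group, that is, the place of the gene within its cluster, and genes with the same number in different clusters descend from a common ancestor. In the embryo, low-numbered genes are switched on first and in the head and neck region, and high-numbered genes later and towards the tail, so that the combination of Hox transcripts tells where along the body a cell arose. Adult fibroblasts and vessel wall cells keep much of this code, and several members have been described as promoting or restraining the growth of vessels. Hox proteins bind DNA together with the TALE cofactors of the Pbx, Meis and Pknox families, retinoic acid and the Cdx factors turn clusters on, and Polycomb and Trithorax proteins keep their genes off or on.

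RNA-Seq was measured in ECs with and without the peptide Apelin, a ligand that drives sprouting of vessels. The tumor ECs were DAPI-/CD45-/CD31+/CD105+ cells sorted from mammary tumors grown from E0771 cells, a mouse mammary carcinoma line, in the mammary fat pad of C57BL6/J mice, with 100 cells per library. In 6 libraries the tumor cells carried shRenilla and the mice were Apln+/+ (called Apelin wild-type), and in 3 libraries the tumor cells carried shApln and the mice were Apln-/- (called Apelin-depleted), so that Apelin was removed from tumor cells and host together. The sprout ECs were CD31+ cells sorted from sprouting embryoid bodies made from haploid embryonic stem cells of a C57BL/6x129 background with a gene trap in Apln. The trap lies between the first exon and the next and is named sense (STOP) or, after Cre had turned it round in a sister line, antisense (GO). Both lines received VEGF-A at 30 ng/ml, the STOP bodies with DMSO and the GO bodies with Apelin at 1000 nM, so that genotype and peptide differ together in the 2 STOP and 2 GO libraries. Nothing in the labels says that replicates came from separate animals or cultures, and the p-values then measure only the spread between these libraries.

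Total counts lay between 4661044 and 14455093 in the tumor libraries, of which 2173 to 7093 fell on Hox genes, and between 12327030 and 16804071 in the sprout libraries, of which 1445 to 4401 did. Apln stood at 796 ± 267 CPM (counts scaled to library size, SD, n = 6) in Apelin wild-type and 7.67 ± 4.87 CPM (n = 3) in Apelin-depleted tumor ECs. In the sprouts Apln stood at 73.1 ± 9.95 CPM (n = 2) in the libraries labelled STOP and 62.1 ± 5.49 CPM (n = 2) in those labelled GO, a log2 fold change of 0.24 (SE 0.16, adjusted p = 0.367, edgeR's quasi-likelihood test). The transcript level therefore does not check the STOP label, and directions are given between the libraries labelled STOP and GO. The summed level of 12 endothelial marker genes lay between 8392 and 14150 CPM in all 9 tumor libraries. In the sprouts it lay at 646 and 869 CPM in the libraries labelled STOP and at 2580 and 2470 CPM in those labelled GO. These CD31+ cells also held 10 pluripotency markers at sums of 6009 and 5812 CPM (STOP) and 2359 and 3822 CPM (GO).

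The clusters lie on chromosomes 6 (Hoxa), 11 (Hoxb, 96194316 to 96368254), 15 (Hoxc, 102921131 to 103036856) and 2 (Hoxd, 74668225 to 74765142) of GRCm38, with 11, 10, 9 and 9 genes. The 150 bases before the start of transcription are shown for 4 members that the results turn on, from the promoter table of RefSeq on GRCm38.p6, which matched 22 of the 39 genes with 24 windows. Hoxa9 (chr6:52227371-52227520, minus strand) and Hoxb8 (chr11:96281755-96281904, plus strand) were called lower in the libraries labelled STOP. Hoxd8 (chr2:74704465-74704614, plus strand) and Hoxd10 (chr2:74691741-74691890, plus strand) were among the highest members in tumor ECs. Capitals mark matches on either strand to the PBX-HOX composite TGATNNAT, the nuclear receptor motif AGGTCA or the CCAAT box, and the CDX motif TTTATGG and the MEIS motif TGACAG were searched as well. Each motif was counted on its own, also where matches to different motifs could overlap.
Hoxa9: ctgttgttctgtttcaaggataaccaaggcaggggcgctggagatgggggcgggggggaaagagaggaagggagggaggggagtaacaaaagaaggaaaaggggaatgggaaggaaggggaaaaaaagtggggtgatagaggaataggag
Hoxb8: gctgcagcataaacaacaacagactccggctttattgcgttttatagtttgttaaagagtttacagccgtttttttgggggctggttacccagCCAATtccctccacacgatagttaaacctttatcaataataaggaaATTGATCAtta
Hoxd8: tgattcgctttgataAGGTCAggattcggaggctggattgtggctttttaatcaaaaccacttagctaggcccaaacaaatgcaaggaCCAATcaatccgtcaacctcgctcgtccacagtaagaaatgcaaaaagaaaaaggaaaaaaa
Hoxd10: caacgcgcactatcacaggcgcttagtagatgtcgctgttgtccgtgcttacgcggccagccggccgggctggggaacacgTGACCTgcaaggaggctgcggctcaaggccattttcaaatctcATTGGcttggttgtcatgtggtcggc

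The Hoxb8 window held a PBX-HOX composite that began 11 bases before the start and a CCAAT box 57 bases before it. The Hoxd8 window held the nuclear receptor motif at 135 bases and a CCAAT box at 62, and the Hoxd10 window held them at 69 and 26 bases. None of the 5 motifs matched in the Hoxa9 window, which says only that these letters are not in those 150 bases. Over the 24 Hox windows, the CCAAT box was in 11, against 24.5% of the 32851 windows in the table. The nuclear receptor motif was in 5 (8.58% of all windows), the PBX-HOX composite in 3 (4.12%), the MEIS motif in 2 (9.67%) and the CDX motif in 1, Hoxd4 (1.35%). These matches are a description of the sequence and not of binding.

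**Figure D1:**
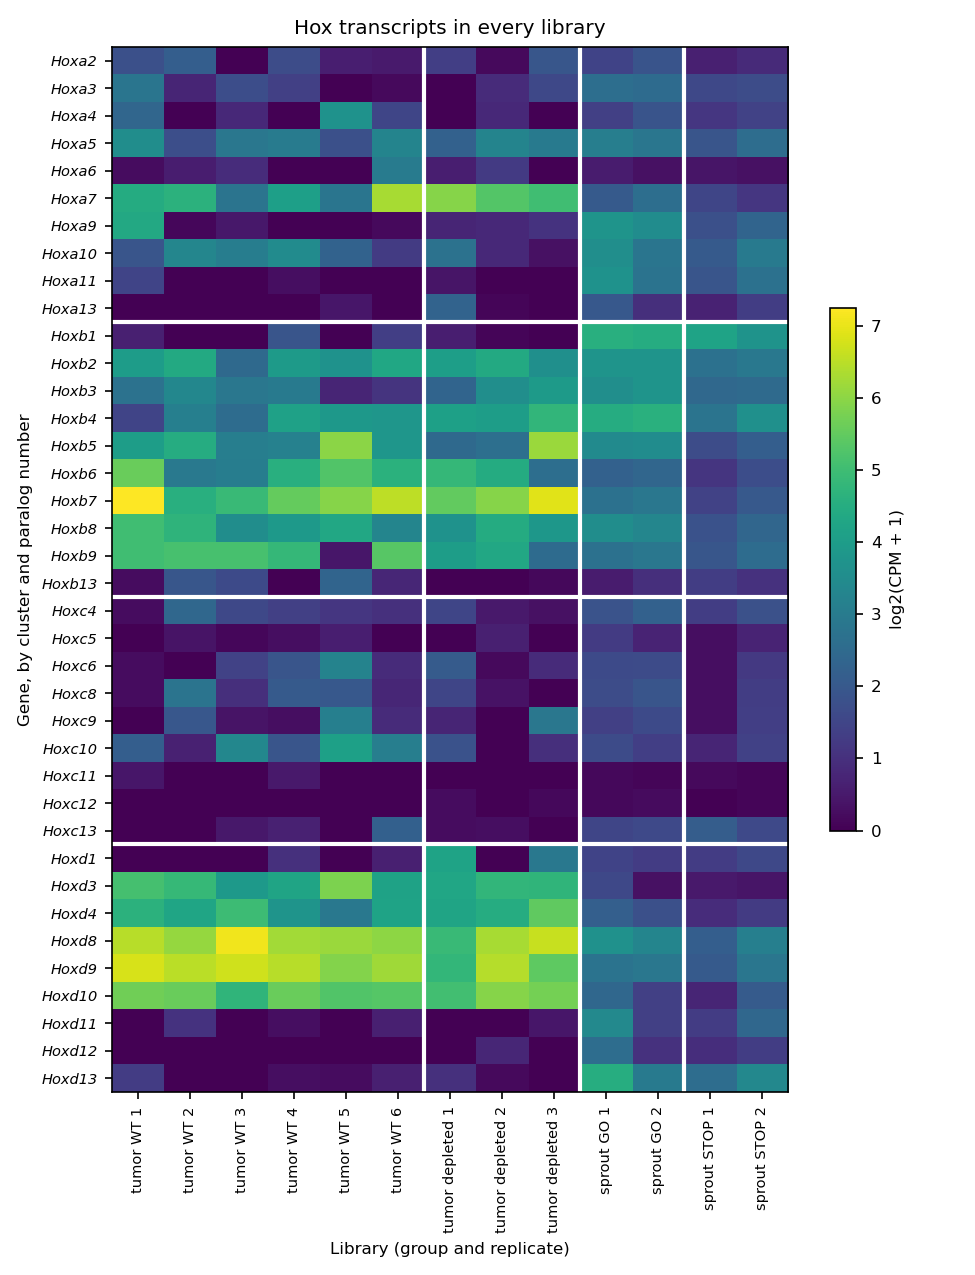
Level of 38 of the 39 Hox genes (rows, by cluster and paralog number) in each of the 13 libraries (columns, by group and replicate), as log2(CPM + 1) from dark (0) to yellow. Tumor ECs are brightest for Hoxb7, Hoxd8 and Hoxd9, and sprout ECs for Hoxb1 and Hoxb4.

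Tumor ECs carried a Hox profile centred on the middle of the Hoxb and Hoxd clusters. Levels of different genes were compared as CPM divided by transcript length in kilobases, with the mean transcript length from the sprout files. In the Apelin wild-type libraries, Hoxd genes took a median of 44.9% of the summed Hox level (range 34.5% to 66.1%), Hoxb genes 41.6% (24.9% to 51.8%), Hoxa genes 8.24% (5.34% to 18.9%) and Hoxc genes 2.85% (0.653% to 7.41%). By place, paralog groups 5 to 8 took 55.6%, groups 9 to 13 took 31.4% and groups 1 to 4 took 12.7% (medians of 6 libraries). The Apelin-depleted libraries had the same order of places, with medians of 57.1%, 21.9% and 16.7% (n = 3).

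Of the 39 members, 13 had at least 10 counts in every tumor library, and all of them lie between groups 2 and 10. They were Hoxa5, Hoxa7, Hoxb2, Hoxb4, Hoxb5, Hoxb6, Hoxb7, Hoxb8, Hoxd3, Hoxd4, Hoxd8, Hoxd9 and Hoxd10, and the list holds no Hoxc gene. By contrast, 22 members were at 0 counts in at least 1 tumor library, and Hoxc5, Hoxc11, Hoxc12 and Hoxd13 stayed under 10 counts in all 9. A count of 0 allows up to 3 counts, or 0.211 to 0.596 CPM depending on the library, for counting error only. Per library, 24 to 30 members reached 3 counts, with medians of 25.5 in Apelin wild-type and 25 in Apelin-depleted ECs.

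**Figure D2:**
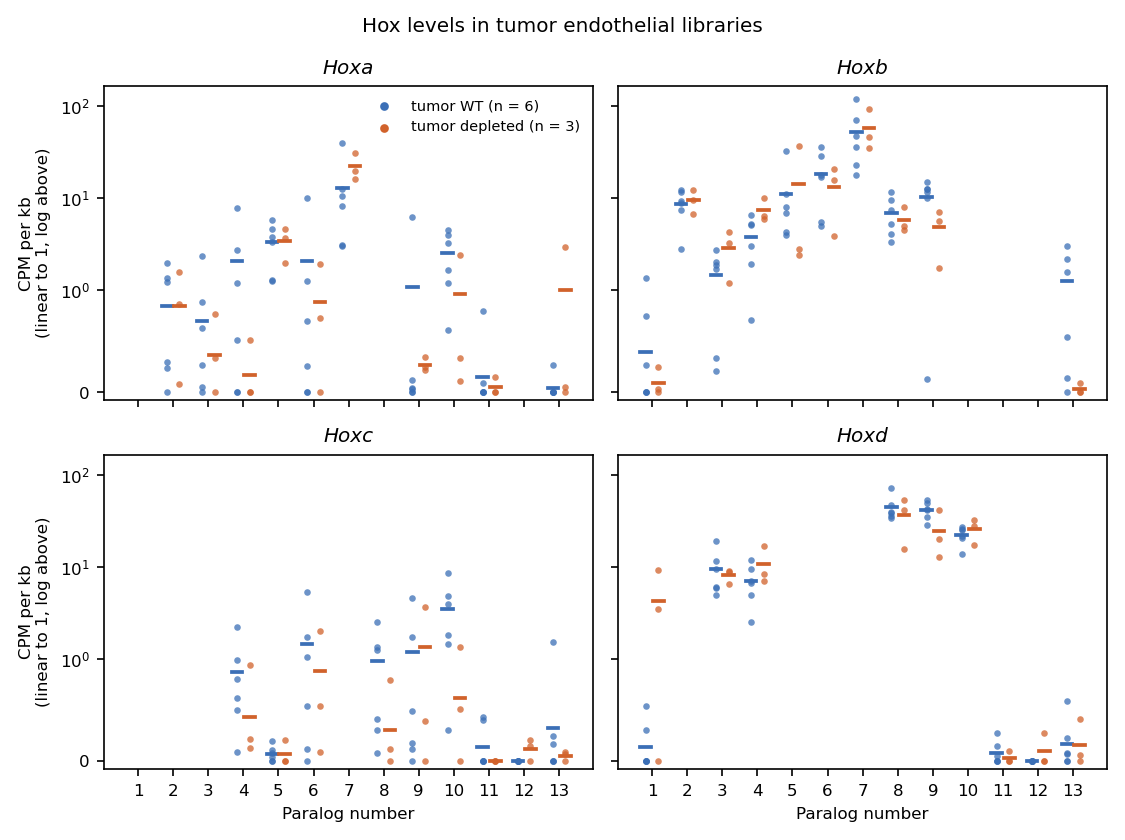
Level of 38 Hox genes in tumor ECs (vertical axis, CPM per kb, linear to 1 and logarithmic above) against their paralog number, 1 panel per cluster, with 1 point per library (blue, Apelin wild-type, n = 6; orange, Apelin-depleted, n = 3) and bars at the group means. Hoxd8, Hoxd9 and Hoxd10 stand well above Hoxd11, Hoxd12 and Hoxd13 in both groups, and Hoxb13 stands far below Hoxb9 in most libraries.

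Hoxb7, which has been described in breast cancer cells as an inducer of angiogenic factors, had the highest mean level in both groups. In Apelin wild-type, replicate 1 raised this mean (119 CPM per kb), and Hoxd9 had the higher median, at 42.0 CPM per kb. The level of Hoxb7 was 17.8, 41.7 and 119 CPM per kb (lowest, median and highest) in Apelin wild-type and 35.1, 46.9 and 93.8 CPM per kb in Apelin-depleted libraries. The wild-type range enclosed the depleted one, and the log2 fold change was 0.17 (SE 0.53, adjusted p = 1.00, edgeR's quasi-likelihood test). Its sign turned without Apelin-depleted replicate 3 (-0.35) and without Apelin wild-type replicate 2 (-0.017). Hoxb7 was the highest member in 6 of the 9 libraries, Hoxd9 in 2 and Hoxd8 in 1.

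Hoxd8, which is known from lymphatic vessels, had 34.4, 39.0 and 72.7 CPM per kb (lowest, median, highest) in Apelin wild-type and 15.6, 42.1 and 53.5 CPM per kb in Apelin-depleted libraries 1 to 3. Depleted replicate 1 was below every wild-type library and the other depleted libraries were within their range, with a log2 fold change of -0.27 (SE 0.40, adjusted p = 1.00, edgeR) that turned to 0.092 without that library. Hoxd9, its neighbour in the cluster, had 28.2, 42.0 and 53.1 CPM per kb in wild-type and 12.7, 41.1 and 20.1 CPM per kb in depleted replicates 1 to 3. Depleted replicates 1 and 3 lay below the wild-type range and replicate 2 inside it. The log2 fold change of Hoxd9 was -0.75 (SE 0.39, unadjusted p = 0.0733, adjusted p = 1.00, edgeR) and stayed between -1.34 and -0.44 with each library left out in turn.

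Hoxd10 has been described as holding endothelium quiescent. It had 13.9, 23.4 and 27.2 CPM per kb (lowest, median, highest) in Apelin wild-type and 17.3, 32.6 and 28.2 CPM per kb in Apelin-depleted replicates 1 to 3. The groups overlapped, with a log2 fold change of 0.22 (SE 0.38, adjusted p = 1.00, edgeR). Hoxd9, Hoxd10 and Hoxd8 had the smallest spread between libraries of the members tested, with coefficients of variation beyond counting error of 0.412, 0.421 and 0.424. The next genes towards the tail were close to the counting floor. Hoxd11 reached at most 1.07 CPM and Hoxd13 at most 1.46 CPM, and Hoxd12 was at 0 in 8 of 9 libraries.

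The other members of the middle of the clusters varied more between libraries of the same group. Hoxa7 had 3.02, 9.46 and 39.9 CPM per kb (lowest, median, highest) in Apelin wild-type and 30.7, 19.8 and 16.2 CPM per kb in Apelin-depleted replicates 1 to 3. All depleted libraries were above the wild-type median but below the highest wild-type library, and the log2 fold change was 0.78 (SE 0.67, adjusted p = 1.00, edgeR's quasi-likelihood test) and between 0.50 and 1.56 with each library left out. Hoxb5 was carried by a few libraries, with 62.5 CPM in wild-type replicate 5 against 7.56 to 21.3 CPM in the other 5, and with 70.9 CPM in depleted replicate 3 against 4.59 and 5.28 CPM in replicates 1 and 2. Hoxb9 was at 0.347 CPM (2 counts) in that same wild-type replicate 5, between 27.2 and 40.4 CPM in the other wild-type libraries, and at 15.3, 19.2 and 4.75 CPM in the depleted replicates 1 to 3. The sum of the Hoxc genes was also highest in wild-type replicate 5, at 37.3 CPM against 4.39 to 14.7 CPM in the other wild-type libraries. This library thus differed from the others in several members and in both directions.

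Of the early members, Hoxd3, a gene reported to promote endothelial invasion, lay between 14.2 and 55.6 CPM in Apelin wild-type and between 18.7 and 26.3 CPM in Apelin-depleted ECs. Hoxd4 lay between 6.43 and 30.1 CPM in wild-type and at 17.8, 21.3 and 43.1 CPM in depleted libraries. Hoxd3 and Hoxd4 share 62.3% and 52.3% of their exon bases with other genes of the same strand, each other included, and reads there could be given to either or left out. Hoxb4, known for expanding blood stem cells, stood at 1.83, 10.4 and 16.7 CPM (lowest, median, highest) in wild-type and at 16.5, 15.3 and 26.1 CPM in depleted replicates 1 to 3. Its groups overlapped in the upper part of the wild-type range, with a log2 fold change of 1.01 (SE 0.70, unadjusted p = 0.169, adjusted p = 1.00, edgeR).

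Some members of low count were carried by 1 or a few libraries. In 11 of the 39 members, 1 tumor library held more than 50% of the CPM summed over all 9 libraries. Hoxa9, which takes part in endothelial and blood cell development, had 19.7 CPM (108 counts) in Apelin wild-type replicate 1 and at most 1.097 CPM in the other 8 libraries. Hoxd1 had 17.3 and 6.46 CPM in Apelin-depleted replicates 1 and 3, was at 0 in replicate 2 and reached at most 0.993 CPM in wild-type libraries. Hoxa13 had 3.91 CPM in depleted replicate 1 and at most 0.347 CPM elsewhere. Hoxb13 reached 2.83, 2.06 and 4.00 CPM in wild-type replicates 2, 3 and 5 and was at 0, 0 and 0.122 CPM in the depleted libraries. With 100 cells in each library, few cells and few molecules can each set such a value, and these were not told apart.

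The comparison of Apelin-depleted with Apelin wild-type tumor ECs called no Hox gene. Of all 13073 genes tested, 1 was called lower, which is 0.00765%, and 0 higher, at an adjusted p under 0.05 and an absolute log2 fold change above 1 (edgeR's quasi-likelihood test). Of the 39 members 26 passed the filter on low counts and 0 were called. At an unadjusted p under 0.05 there was 1 member lower, Hoxb13 (log2 fold change -4.92, SE 2.13, unadjusted p = 0.0350, adjusted p = 1.00, a fitted value that rests on 1 count in the depleted group), against 2.94% of all genes, and there were 0 members higher, against 1.87%. The groups overlapped in all 26 members, where 1.27% of all genes were lower and 1.06% higher without overlap. DESeq2, which called 97 genes lower (0.671%) and 19 higher (0.131%), also called 0 Hox genes. Among the 26 members, 16 had a lower and 10 a higher mean in the depleted group, with a median log2 fold change of -0.26 against -0.03 over all genes.

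In the Hoxa and Hoxc clusters, the largest differences, which did not pass the test, were in members of low count. Hoxa4 had 0, 1.31 and 12.0 CPM (lowest, median, highest) in Apelin wild-type and 0, 0.774 and 0 CPM in depleted replicates 1 to 3, with a log2 fold change of -3.42 (SE 2.12, adjusted p = 1.00, edgeR) that ran from -7.51 to -2.88 with each library left out in turn. Hoxc10 had 0.586, 5.55 and 16.3 CPM in wild-type and 2.55, 0 and 0.975 CPM in depleted replicates, with a log2 fold change of -2.52 (SE 1.47, adjusted p = 1.00, edgeR; -3.79 to -1.92 with a library left out). Both genes ranged widely within the wild-type group itself. The summed Hox transcripts were alike in size, with 447, 481 and 685 CPM (lowest, median, highest) in wild-type and 369, 499 and 590 CPM in depleted replicates 1 to 3.

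The spread between tumor libraries limits what can be seen. The biological coefficient of variation, the spread between libraries beyond counting error in edgeR's fit, had a median of 0.838 over the 26 members, against 0.593 over all genes and 0.924 over the 5312 genes of a similar mean level. Fibroblasts and mesenchyme are cells that carry Hox codes of their own. Their markers summed to 61.3 to 175 CPM in depleted and 102 to 6235 CPM in wild-type libraries. The wild-type median was 262 CPM, far below the highest library. All 8 tested genes of that list of 10 had lower means in depleted ECs, with 0 called. For Dcn the medians ran the other way, at 23.0 CPM in depleted and 2.10 CPM in wild-type. Mural markers summed to 63.5 to 79.9 CPM in depleted and 64.2 to 439 CPM in wild-type libraries. Leukocyte markers summed to 846, 6.54 and 113 CPM in depleted replicates 1 to 3. In wild-type libraries they summed to 28.3, 50.5 and 623 CPM (lowest, median, highest). The part of these cells in the Hox values was not tested.

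**Figure D3:**
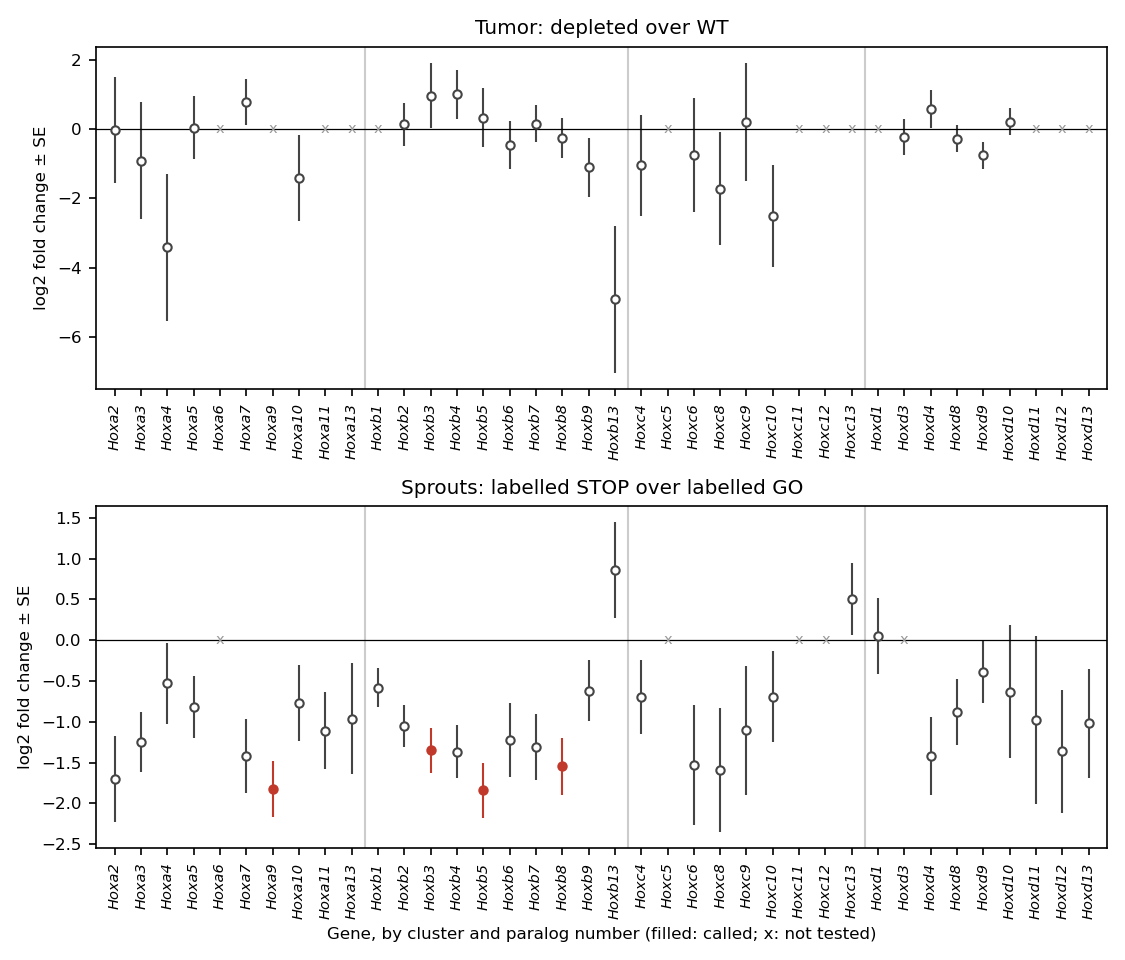
Log2 fold change with its standard error for 38 Hox genes, by cluster and paralog number, in tumor ECs (Apelin-depleted over wild-type, top) and sprout ECs (labelled STOP over labelled GO, bottom), from edgeR, with filled red points for called genes and crosses for genes not tested. In the tumor panel the values lie on both sides of 0 with wide errors, and in the sprout panel 30 of 33 lie below 0.

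The CD31+ sprout cells held counts of more Hox genes than tumor ECs, and low-numbered members took a larger share, with no test. At least 10 counts in every sprout library were found for 28 of the 39 members, and Hoxa6, Hoxc11 and Hoxc12 stayed under 10 in all 4. By deposited TPM, a unit that takes transcript length into account, Hoxb genes took 46.5% of the summed Hox level in the libraries labelled GO (mean, n = 2), Hoxa genes 28.4%, Hoxd genes 18.3% and Hoxc genes 6.78%. The libraries labelled STOP had 44.5% (Hoxb), 27.9% (Hoxa) and 7.67% (Hoxc), and Hoxd genes took 16.5% and 23.5% in STOP replicates 1 and 2. Paralog groups 1 to 4 took 44.6% in GO and 46.6% in STOP libraries, against a median of 12.7% in Apelin wild-type tumor ECs. The sets differ in cell source, marker content, cell number, library method and counting, and these cannot be told apart from the difference between tumor and embryoid body vessels. Endothelial markers summed to 646 to 2580 CPM in sprout and 8392 to 14150 CPM in tumor libraries. Pluripotency markers summed to 2359 to 6009 CPM in sprout and 54.4 to 476 CPM in tumor libraries. The part of this mix of cells in the Hox profile was not tested.

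Hoxb1, among the first members switched on in the embryo and known from the hindbrain, led the sprout libraries. It had 12.2 and 8.47 TPM in STOP replicates 1 and 2 and 19.3 and 17.1 TPM in GO replicates 1 and 2, and was the highest member in each of the 4 libraries. In tumor ECs the same gene was at 0 in 4 of 9 libraries and reached at most 2.78 CPM. Both STOP libraries were below both GO libraries for Hoxb1, with a log2 fold change of -0.58 (SE 0.24, adjusted p = 0.171, edgeR's quasi-likelihood test).

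**Figure D4:**
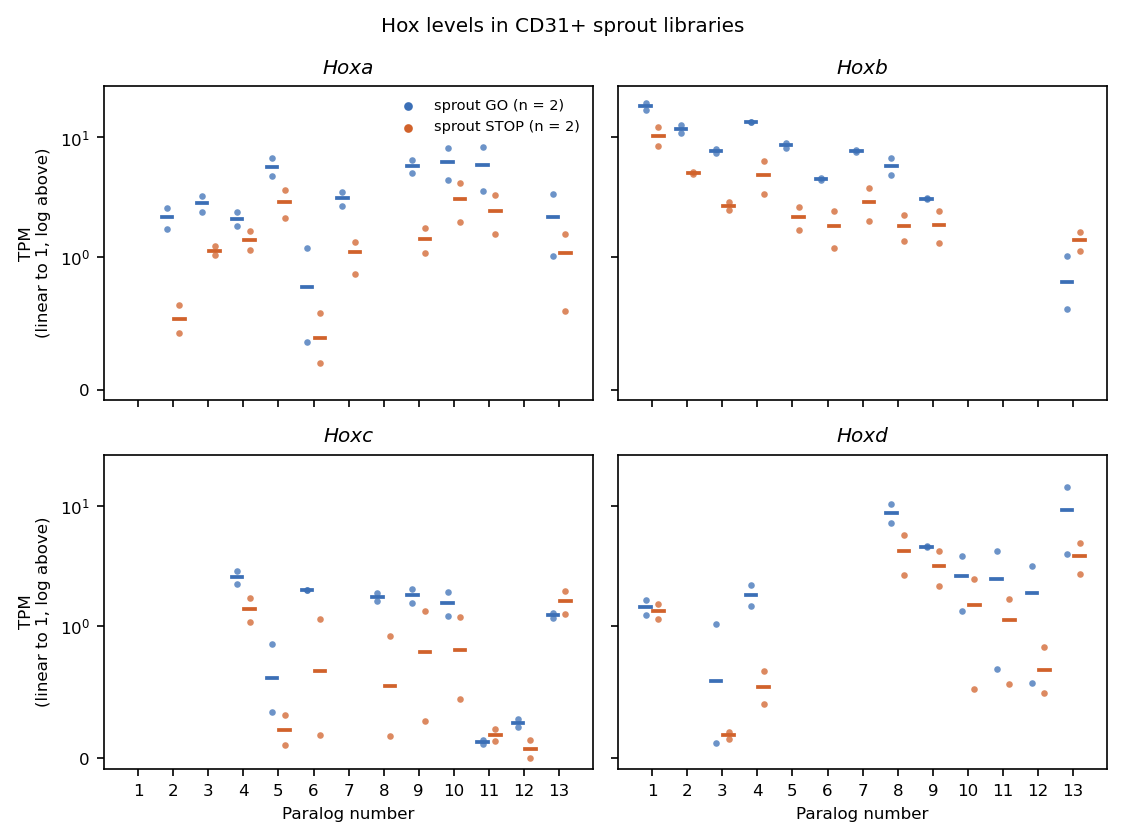
Level of 38 Hox genes in sprout ECs (vertical axis, TPM, linear to 1 and logarithmic above) against their paralog number, 1 panel per cluster, with 1 point per library (blue, labelled GO, n = 2; orange, labelled STOP, n = 2) and bars at the group means. From Hoxb1 to Hoxb9 both STOP points lie below both GO points, while from Hoxd10 to Hoxd13 the groups overlap.

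The libraries labelled STOP held less Hox transcript than those labelled GO. The summed Hox level was 97.9 and 144 CPM in STOP replicates 1 and 2 and 260 and 222 CPM in GO replicates 1 and 2, so that the mean of GO was 1.99 times that of STOP. In a bulk sample, fewer cells of a type and less RNA per cell cannot be told apart. Of all 14557 genes tested, 441 were called lower in STOP, which is 3.03%, and 124 higher, which is 0.852% (edgeR). Of the 39 members 34 passed the filter on low counts, 4 were called lower and 0 higher. Before adjustment, 14 of the 34 were lower at p under 0.05, against 14.3% of all genes, and 0 were higher, against 12.4%. Without overlap between the groups, 22 were lower, against 29.6% of all genes, and 2 were higher, against 31.0%. The median log2 fold change of the 34 members was -1.03, and over all genes it was 0.01.

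The 4 called members were Hoxa9, Hoxb3, Hoxb5 and Hoxb8. Hoxa9, which has been described as an activator of endothelial genes such as Nos3 and Kdr, had 2.44 and 4.07 CPM in STOP and 12.5 and 10.5 CPM in GO replicates 1 and 2. Every GO library was far above both STOP libraries, with a log2 fold change of -1.82 (SE 0.34, adjusted p = 0.0260, edgeR's quasi-likelihood test). Hoxb5, reported to act on the promoter of the VEGF receptor Kdr, had 2.24 and 3.503 CPM in STOP and 9.97 and 10.5 CPM in GO, with a log2 fold change of -1.84 (SE 0.34, adjusted p = 0.0245, edgeR). The GO libraries were nearly equal, and the STOP libraries were both below them.

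Hoxb3, reported in capillary formation, had 4.47 and 4.73 CPM in STOP and 10.97 and 12.5 CPM in GO replicates 1 and 2, with a log2 fold change of -1.35 (SE 0.27, adjusted p = 0.0313, edgeR's quasi-likelihood test). Hoxb3os, an antisense transcript, overlaps 52.9% of the exon bases of Hoxb3, and because use of the strand in counting is not given in the sources used here, their reads cannot be told apart. Hoxb8, known from myeloid progenitors, had 2.57 and 4.24 CPM in STOP and 10.8 and 8.96 CPM in GO, with a log2 fold change of -1.54 (SE 0.35, adjusted p = 0.0422, edgeR). The STOP libraries were close together for Hoxb3 and 1.65 times apart for Hoxb8, and did not reach the GO libraries for either gene.

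These calls rest on few libraries. Without STOP replicate 1, and likewise without GO replicate 1, 0 Hox genes were called, while 136 and 135 of all genes were still called lower. Without GO replicate 2, Hoxa9 and Hoxb5 were called, among 546 of all genes called lower, and without STOP replicate 2 Hoxa9, Hoxb4, Hoxb5 and Hoxb8, among 548. The direction did not change in any of these, with log2 fold changes of -2.25 to -1.47 for Hoxa9, -2.20 to -1.52 for Hoxb5, -1.44 to -1.25 for Hoxb3 and -1.95 to -1.20 for Hoxb8. DESeq2, which called 4.65% of all genes lower, called the same 4 members and also Hoxb2 and Hoxb4. With the replicate number as a block 0 members were called (0.282% of all genes lower). With crossed numbers, a block added after the data were seen, 13 were called (6.41%). With 2 libraries per group, crossing turned the correlation of paired deviations from -0.434 to 0.434, so the 13 are no separate check of the calls. Under the replicate block the log2 fold changes of the 4 members were about as large, at -1.85 (Hoxa9), -1.35 (Hoxb3), -1.86 (Hoxb5) and -1.57 (Hoxb8). With rounded RSEM expected counts, Hoxa9, Hoxb3 and Hoxb5 were called and Hoxb8 was not (log2 fold change -1.53, adjusted p = 0.0603, edgeR).

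Other Hoxb genes lay next to the threshold. Hoxb4 had 5.89 and 11.4 CPM in STOP and 21.2 and 23.2 CPM in GO replicates 1 and 2, with a log2 fold change of -1.37 (SE 0.32, adjusted p = 0.0507, edgeR's quasi-likelihood test). Hoxb2 had 5.55 and 6.52 CPM in STOP and 12.6 and 12.4 CPM in GO, with a log2 fold change of -1.05 (SE 0.26, adjusted p = 0.0548, edgeR). From Hoxb1 to Hoxb9, all 9 members had both STOP libraries below both GO libraries, as 29.6% of all genes did. Hoxb13, which lies apart at the far end of the cluster, had the opposite order, with 1.49 and 1.06 CPM in STOP and 0.472 and 0.969 CPM in GO and a log2 fold change of 0.86 (SE 0.59, adjusted p = 0.384, edgeR).

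The differences between STOP and GO are given here along the clusters, beside the 29.6% of all genes that were lower and the 31.0% that were higher without overlap. In paralog groups 5 to 8, all 9 tested members had both STOP libraries below both GO libraries, with a median log2 fold change of -1.42. In groups 1 to 4 this held for 9 of 11, with a median of -1.05, and in groups 9 to 13 for 4 of 14, with a median of -0.87, while 2 of those 14 were higher without overlap (Hoxb13 and Hoxc13). The difference between these groups of paralogs was not tested. By cluster, the medians were -1.03 in Hoxa (10 tested), -1.27 in Hoxb (10), -0.90 in Hoxc (6) and -0.93 in Hoxd (8).

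Hoxc and Hoxd members had wide errors. Hoxc8, a gene of the thoracic region, had 0.203 and 1.47 CPM in STOP and 2.18 and 2.74 CPM in GO replicates 1 and 2, with a log2 fold change of -1.59 (SE 0.76, adjusted p = 0.233, edgeR's quasi-likelihood test) that ran from -3.55 to -0.72 with each library left out. STOP replicate 1 held 3 counts of this gene, and also 3 counts each of Hoxc6 and Hoxc9. Hoxd4 had 0.880 and 1.39 CPM in STOP and 3.599 and 2.42 CPM in GO, with a log2 fold change of -1.42 (SE 0.48, adjusted p = 0.116, edgeR). Hoxc4 had 1.49 and 2.44 CPM in STOP and 2.596 and 3.79 CPM in GO, with a log2 fold change of -0.70 (SE 0.45, adjusted p = 0.357, edgeR). Both STOP libraries were below both GO libraries in all of these, though STOP replicate 2 came near GO replicate 1 for Hoxc4.

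The members at the posterior end of the Hoxd cluster separated the replicates rather than the groups. Hoxd13, known from digits and the hind end of the embryo, had 5.01 and 9.37 CPM in STOP and 22.1 and 6.78 CPM in GO replicates 1 and 2. GO replicate 1 stood above the other 3 libraries and GO replicate 2 lay between the STOP libraries, with a log2 fold change of -1.02 (SE 0.67, adjusted p = 0.396, edgeR) that turned to 0.079 without GO replicate 1. Hoxd11, Hoxd12 and Hoxd13 each had more than 50% of their CPM in GO replicate 1, as did Hoxd3. Summed over the Hoxd cluster, GO replicate 1 had 2.16 times the level of GO replicate 2, and STOP replicate 2 had 2.06 times that of STOP replicate 1. For the Hoxb cluster these ratios were 0.972 and 1.19.

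The same libraries were high in markers of fibroblasts and mesenchyme, cells that a CD31+ sort should remove. The 10 markers summed to 483 and 3049 CPM in STOP and 3056 and 649 CPM in GO replicates 1 and 2, with none at 0, and the 8 mural markers to 267 and 414 CPM and to 630 and 283 CPM. Hox genes of paralog groups 9 to 13 summed to 29.0 and 53.9 CPM in STOP and 96.8 and 53.8 CPM in GO, so that the library of each pair with more mesenchymal transcript also had more of these Hox transcripts. Groups 5 to 8 summed to 16.7 and 30.6 CPM in STOP and 58.5 and 55.8 CPM in GO, so that they divided the STOP libraries in the same way and the GO libraries hardly. Groups 1 to 4 summed to 52.2 and 59.3 CPM in STOP and 104 and 112 CPM in GO, and their ratios were 1.14 (STOP replicate 2 over 1) and 0.930 (GO replicate 1 over 2). The part of mesenchymal cells in the Hox values was not tested.

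**Figure D5:**
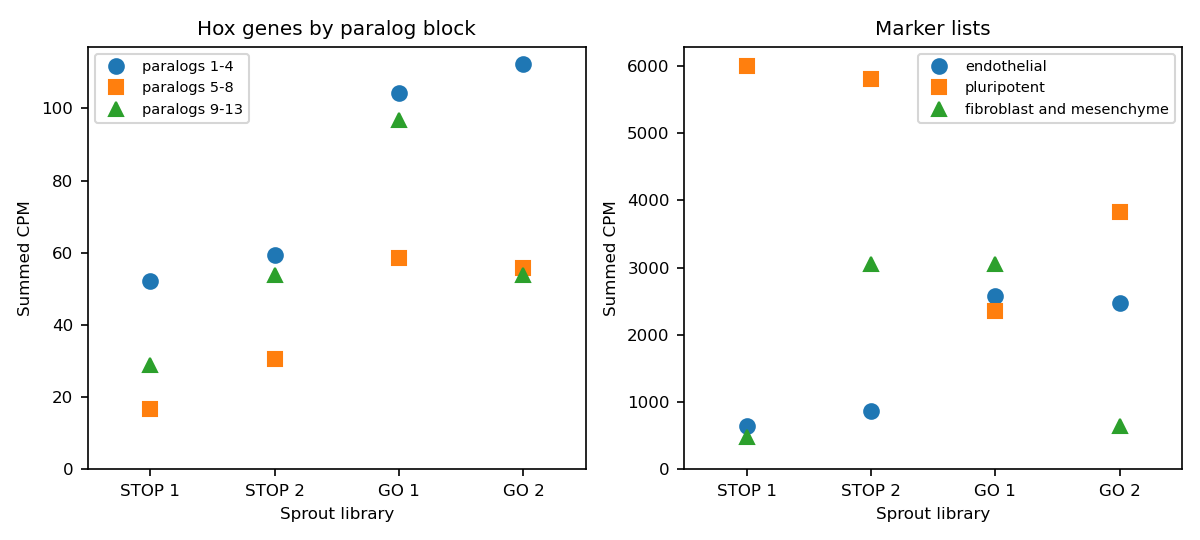
Summed CPM of the Hox genes by paralog block (left) and of 3 marker lists (right) in each of the 4 sprout libraries. Paralogs 1 to 4 and 5 to 8 are lower in both libraries labelled STOP, as the endothelial markers are, while the fibroblast and mesenchyme markers are high in STOP 2 and GO 1. For paralogs 9 to 13 GO 1 is highest, STOP 1 lowest, and STOP 2 and GO 2 are level.

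Endothelial markers moved with the Hox genes between the libraries labelled STOP and GO. Of the 12 markers 11 were called lower in STOP and none higher, beside 3.03% of all genes called lower and 0.852% higher. Their median log2 fold change was -1.96. Cdh5, the cadherin of endothelial junctions, was at 167 ± 63.9 CPM in STOP and 658 ± 32.9 CPM in GO (SD, n = 2). Of the 10 pluripotency markers 1 was called higher and 0 lower, while 9 had higher means in STOP, each of them at an unadjusted p under 0.05 (median log2 fold change 0.87). With a library left out, 0 to 8 were called higher, the 8 without GO replicate 2. Blood progenitor markers had 2 of 9 tested called lower, Tal1 and Runx1. Of the 9 tested, 8 had lower means in STOP and 1 a higher mean. An unadjusted p under 0.05 was found for 6 of the lower ones (edgeR), and the median of the 9 log2 fold changes was -2.36. The 10 markers of this list summed to 102 and 48.6 CPM in STOP and to 304 and 405 CPM in GO replicates 1 and 2. Of the neural markers 1 of 6 tested was called higher, and 0 of the epithelial (7 tested), leukocyte (5), mesoderm progenitor (6), fibroblast (10) and mural (7) markers were called (edgeR). Without GO replicate 1 the endothelial calls fell to 7 and the blood progenitor calls to 1, while without STOP replicates 1 and 2 the blood progenitor calls were 4 and 5. The neural call was lost without STOP replicate 1 or GO replicate 1, and there were 2 without GO replicate 2. The part of a different mix of cells in the Hox values was not tested.

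Calls among genes that work with Hox proteins or control them are given beside 3.03% of all genes called lower and 0.852% higher. Of the 9 TALE cofactors 1 was called lower in STOP, Meis3 (log2 fold change -1.36, SE 0.30, adjusted p = 0.0398), and 0 higher, and Pbx2 passed the adjusted p but not the fold (-0.73, SE 0.14, adjusted p = 0.0260, edgeR's quasi-likelihood test). Of 11 tested genes among the Cdx factors and other signals that set Hox genes along the axis, 1 was called, Cdx2, at a log2 fold change of -2.15 (SE 0.47, adjusted p = 0.0384, edgeR). Its mean was 0.712 CPM in STOP and 3.18 CPM in GO. Of 17 genes of the retinoic acid pathway, 3 were called lower and 0 higher. These were Cyp26a1 (-1.19) and Cyp26b1 (-1.93), enzymes that break retinoic acid down, and Stra6 (-1.57), the receptor through which cells take up retinol. These calls did not hold in every fit with a library left out, where 1 library is left in a group. Without STOP replicate 1, and likewise without GO replicate 1, 0 genes of these 3 lists were called. Without STOP replicate 2 the TALE list had 2 calls, the Cdx list 0 and the retinoic acid list 1, and without GO replicate 2 they had 0, 1 and 4.

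Chromatin regulators and cluster neighbours gave few calls. Of 30 Polycomb genes, 3 lower and 10 higher in STOP had an unadjusted p under 0.05 (edgeR), beside 14.3% lower and 12.4% higher over all genes. Phf19 was called higher in STOP (log2 fold change 1.36, SE 0.25, adjusted p = 0.0298, edgeR's quasi-likelihood test), beside 0.852% of all genes, and none lower. The median log2 fold change of the 30 Polycomb genes was 0.20. Without STOP replicate 1 or GO replicate 1, 0 of them were called higher, and without GO replicate 2 there were 2. Of 18 Trithorax genes and H3K27 demethylases 0 were called, of which 2 lower and 6 higher had an unadjusted p under 0.05 (edgeR), beside 14.3% lower and 12.4% higher over all genes. Of 18 tested genes flanking the clusters 0 were called, while 3 with lower and 3 with higher means had an unadjusted p below 0.05, near the same shares of all genes. Of 5 tested transcripts of the clusters other than Hox genes 0 were called and 2 had an unadjusted p under 0.05, Hoxaas2 (-2.44, adjusted p = 0.0801) and Hoxa11os (-1.53, adjusted p = 0.129, edgeR). The list medians were 0.11 for the flanking genes and 0.02 for the Trithorax list.

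Genes reported as targets of Hox factors in vessels included 5 of 15 tested that were called lower in STOP and none higher, beside 3.03% of all genes called lower. Nos3, Kdr, Efna1 and Cdh5 were among the 5. All 15 had lower means, as 49.5% of all genes did, with a median log2 fold change of -1.01. Kdr and Cdh5 also stand in the endothelial marker list. Among other homeobox genes of vascular cells, Hhex (-1.58, adjusted p = 0.00807) and Zeb1 (-1.22, adjusted p = 0.0290) were called lower of 17 tested and none higher (edgeR's quasi-likelihood test). Without GO replicate 1 the targets had 3 calls. The homeobox list had 1 call without either GO replicate and 0 without STOP replicate 1. In tumor ECs, edgeR called 0 genes in each of these lists, while DESeq2 called 1 gene lower in each of the retinoic acid, other homeobox, fibroblast, mural and leukocyte lists and 0 in the rest. In the tumor fit the retinoic acid pathway had 1 gene lower, Cyp26b1 (-2.74, adjusted p = 0.914), and 1 higher, Rdh10 (1.68, adjusted p = 0.948, edgeR), with an unadjusted p under 0.05.

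Of the 4 members called in sprouts, 3 had a fitted value in tumor ECs, and none of these was called there. Hoxb3 had a log2 fold change of 0.98 (SE 0.95) and Hoxb5 of 0.34 (SE 0.85) in Apelin-depleted over wild-type tumor ECs, and Hoxb8 had -0.24 (SE 0.58), with adjusted p = 1.00 for each (edgeR's quasi-likelihood test). Hoxa9 did not pass the filter on low counts there. The difference of these values between tumors and sprouts was not tested.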

How the data were processed

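RNA-Seq libraries were grouped by the genotype, strain and treatment labels. For the tumor ECs the authors deposited whole-number counts per gene, without normalization. The labels' processing notes list Bowtie2 2.3.4.1, Trim Galore 0.5.0, SAMtools 1.9 and Subread 1.6.2, whereas the study's methods name STAR and featureCounts, and this was not settled. For the sprout ECs the authors deposited HTSeq counts and, from RSEM 1.2.25, expected counts and TPM, after alignment with STAR 2.5.0a. HTSeq leaves out reads that align to several places. The build is mm10 (GRCm38).

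Counts were normalized by TMM and tested with edgeR 4.0.16 by its robust quasi-likelihood fit in 1 model per set, after filterByExpr at a minimum count of 10, and p-values were adjusted by Benjamini-Hochberg over all tested genes. A gene was called at an adjusted p under 0.05 and an absolute log2 fold change above 1. The deposited lines that tally unassigned reads were left out of library sizes and tests, and 42.6% to 49.6% of the reads tallied in the sprouts were not unique. Exons were compared with GENCODE M21, and strand use in counting is not given in the sources used here. Expected counts and HTSeq counts differed by under 10% in 35 of the 36 members with at least 40 summed counts, the exception being Hoxb3 (expected over HTSeq 1.42). Replicates of a group differed by more than sampling noise in every pair (chi-square per degree of freedom 18.1 to 155).

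Alternatives were DESeq2 1.42.0, its size factors in edgeR, other filters, no fold threshold, the replicate block, limma 3.58.1 voom weights, rounded expected counts and each library left out. The fit was tested on simulated data. The members, gene lists and alternatives were chosen with earlier results of these data known. The text names every called member and, per cluster, the member of highest mean CPM and that of largest fold change. Of other lists it names up to 4 called genes by lowest p. Further members were named after their values were seen, to describe the profile. For 1 member no values of its own are reported here, though counts and sums over the members include it.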

Additional observations from a re-analysis of the deposited data

Results flagged for a closer look

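In the 6 Apelin wild-type tumor libraries, 9 of 30 values tested stood apart, that is, the gap between an end library and its nearest neighbour took an unusually large part of the whole range by Dixon's critical value. Chance sets about 1 in 20 such groups apart if values are normally distributed, which was not checked for these CPM. The rate is therefore only a rough guide here. The members also share libraries, so that these values are not independent. Replicate 5 was the one apart in 6 of them. It was highest for Hoxa4 at 12.0 CPM (next 4.20), Hoxb5 at 62.5 CPM (next 21.3), Hoxc6 at 8.51 CPM (next 2.78) and Hoxc9 at 7.82 CPM (next 2.93), and lowest for Hoxb9 at 0.347 CPM (next 27.2). The sum of the Hoxc cluster was also highest there, at 37.3 CPM (next 14.7). Hoxa3 was highest in replicate 1 at 6.03 CPM (next 2.26), Hoxa7 in replicate 6 at 77.8 CPM (next 24.3), and Hoxd8 in replicate 3 at 135 CPM (next 87.9). The cause of these values was not tested.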

How the results depend on the processing

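In tumor ECs, Hox genes called stayed at 0 in both directions under every alternative run. Over all genes, the count called lower was 97 with DESeq2, 7 without a filter and 2 with the replicate block, and 1 to 2 with a library left out. The count called higher was 19 with DESeq2, 9 without a filter and 1 with voom weights. Log2 fold changes ranged from -0.35 to 0.59 for Hoxb7, which turned without Apelin-depleted replicate 3 (-0.35) or wild-type replicate 2 (-0.017), and from -0.63 to 0.092 for Hoxd8, which turned without depleted replicate 1. In sprout ECs, 7 Hox genes were called lower without a filter, among 632 of 19441 genes, and 0 to 4 with a library left out. Over all genes, 135 to 548 were called lower and 12 to 341 higher with a library left out, and the count called higher was 198 with DESeq2, 222 without a filter and 279 without a fold threshold. The log2 fold change of Hoxd13 ranged from -1.62 to 0.079, which it reached without GO replicate 1. Where 1 library of a group was left, it was assumed to vary like the other group. The cause was not tested.

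The labels' replicate numbers are not said to pair samples. With the replicate block, 41 genes were called lower and 3 higher in the sprouts, and 0 Hox genes. Deviations from the group means correlated at -0.434 for same-numbered sprout libraries, and at -0.14 to 0.06 for same-numbered tumor libraries. With the numbers crossed, a block added after the data were seen, 933 genes were called lower and 302 higher, of which 13 lower were Hox genes.

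Depth limits the low members: 3 counts stood for 0.211 to 0.596 CPM in tumor and 0.177 to 0.244 CPM in sprout libraries. Members with at least 1, 3 and 10 counts numbered 30, 25.5 and 21.5 (medians) in wild-type and 30, 25 and 21 in Apelin-depleted tumor libraries.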

Other observations

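Hoxc13, a gene of hair and nails, was higher in both sprout libraries labelled STOP (3.39 and 2.04 CPM) than in both labelled GO (1.83 and 2.02 CPM), with a log2 fold change of 0.50 (SE 0.44, adjusted p = 0.503, edgeR's quasi-likelihood test). STOP replicate 2 and GO replicate 2 were nearly equal.

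Prox1, the homeobox gene of lymphatic endothelium, had 0.731, 28.6 and 175 CPM (lowest, median, highest) in Apelin-depleted and 0, 2.06 and 66.7 CPM in wild-type tumor ECs, so that 1 library carried most of each mean, with a log2 fold change of 2.22 (SE 1.82, adjusted p = 1.00, edgeR). It averaged 1.6 CPM in STOP and 4.23 CPM in GO sprout ECs (log2 fold change -1.39, SE 0.41, adjusted p = 0.0865, edgeR). Neither difference passed the test.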
